A study of Homo sapiens with 2 samples.

Results

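The genes that write, remove, read and feed histone acylation were examined as a set of 58 members, out of 20056 protein-coding genes. Members were chosen by function: 10 acyltransferases, 16 deacylases, 15 acyl readers and 17 genes of crotonyl-CoA and lysine metabolism. The readers take in the chromodomain Y-like proteins CDYL and CDYL2 by grouping only. A peak counted as a member's when the deposited list gave the member as the gene nearest to it, or when its annotation text named the member's gene. By this rule 19 of the 10041 peaks in the list belonged to 11 of the 58 members. Annotation texts could be read only where the list itself pairs the gene with a symbol as a nearest gene, so they added peaks but could not add a member.

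The peaks came from T98G, an established human glioblastoma cell line, treated with crotonate at 10 µM for 48 h. From the treated cells, DNA bound by proteins with crotonylated lysine was pulled down with a pan-Kcr antibody and sequenced as 1 ChIP (chromatin immunoprecipitation) library, and 1 input library was made from chromatin that was not precipitated. Control cells were not analysed here, so a peak marks where the list calls fragments enriched over background in treated cells and not a response to crotonate. The ChIP library has no replicate, so no difference can be set against a replicate spread, and the intervals given cover counting error only. The list holds no expression values, so markers of the cell type could not be checked.

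Lysine crotonylation is the attachment of a crotonyl group to lysine, and on histones it is found at active promoters and enhancers. Acyltransferases such as p300 transfer the group from crotonyl-CoA, deacylases of the zinc-dependent and sirtuin families take it off, and proteins with YEATS or double PHD finger domains bind it. Crotonyl-CoA arises from free crotonate through acyl-CoA synthetases and from the oxidation of butyrate, lysine and tryptophan, and is used up by hydration.

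Peaks were found at genes of all 4 functions. EP300 was the acyltransferase with a peak, HDAC4, HDAC9 and SIRT2 the deacylases, MLLT1, MLLT3, BRD7 and CDYL2 the readers, and ACSS1, ACSS2 and ACLY the metabolic enzymes. The share was 19.0% of members (exact binomial 95% interval 9.87 to 31.4%), beside 17.2% of all protein-coding genes, so the members' share lay near the background. A promoter peak, which in the authors' annotation lies within 3 kb of a transcript's start, was assigned to EP300, SIRT2, HDAC4 and ACSS1. These are 6.90% of members (1.91 to 16.7%), beside 5.98% of all protein-coding genes. When a peak was instead counted for any gene whose RefSeq span held it, 13 members had a peak, or 22.4% (12.5 to 35.3%), beside 17.1% of protein-coding genes. This count, added after seeing the data, left out MLLT1 and took in HDAC2, SIRT4 and DPF3.

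**Figure D1:**
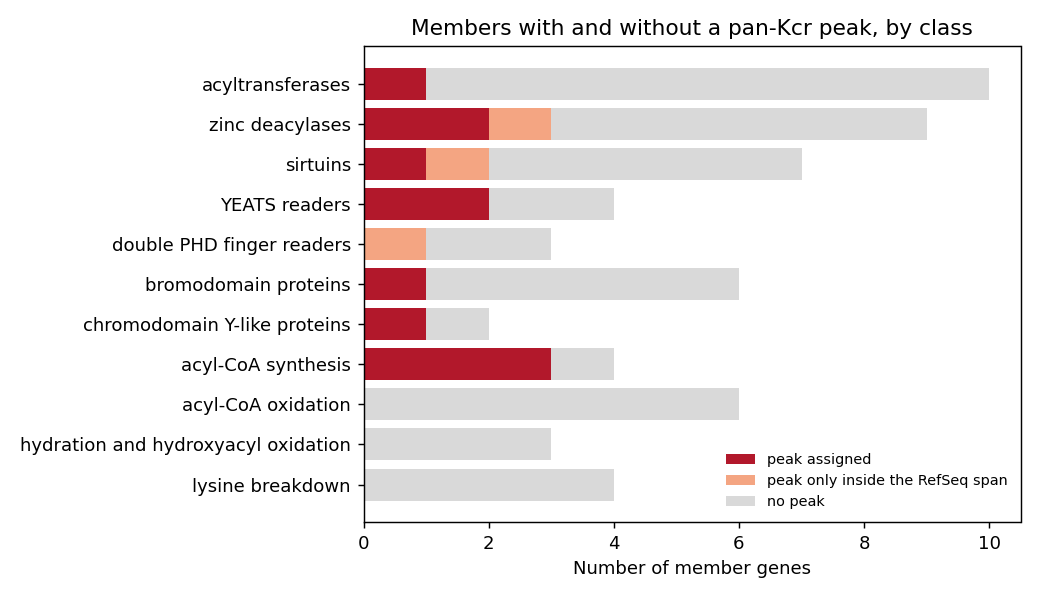
Number of member genes (x axis) in each of 11 classes with an assigned pan-Kcr peak, with a peak inside the RefSeq span that the list assigns to another gene, or with no peak. Acyl-CoA synthesis had peaks at 3 of 4 genes, beside 1.10 at the shares of genes of like length, and the oxidation, hydration and lysine breakdown classes at 0 of 13, beside 2.32, while 17.2% of all protein-coding genes had one. All 3 acyl-CoA synthesis peaks lie below the median fold enrichment of 2.73.

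Long genes hold more peaks, and the members' counts were read against length. Protein-coding genes were split into 10 groups of equal size by length. In group 10, from 152 to 2474 kb, 48.2% had an assigned peak, and in group 1, the shortest, 5.33%. The 58 members had a median length of 45.8 kb. If each member had the share of its own length group, 12.6 members would have an assigned peak, 4.20 a promoter peak and 13.5 a peak inside their span, beside the 11, 4 and 13 found. The members' spans added up to 4.94 Mb and held 21 peaks, which is 4.25 per Mb (exact Poisson 95% interval 2.63 to 6.50). All protein-coding genes together held 3.87 per Mb (3.76 to 3.98), a rate at which the members would hold 19.1. Of the 9 members in group 10, 4 had an assigned peak, and of the 11 members in groups 2 to 4 none had.

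**Figure D2:**
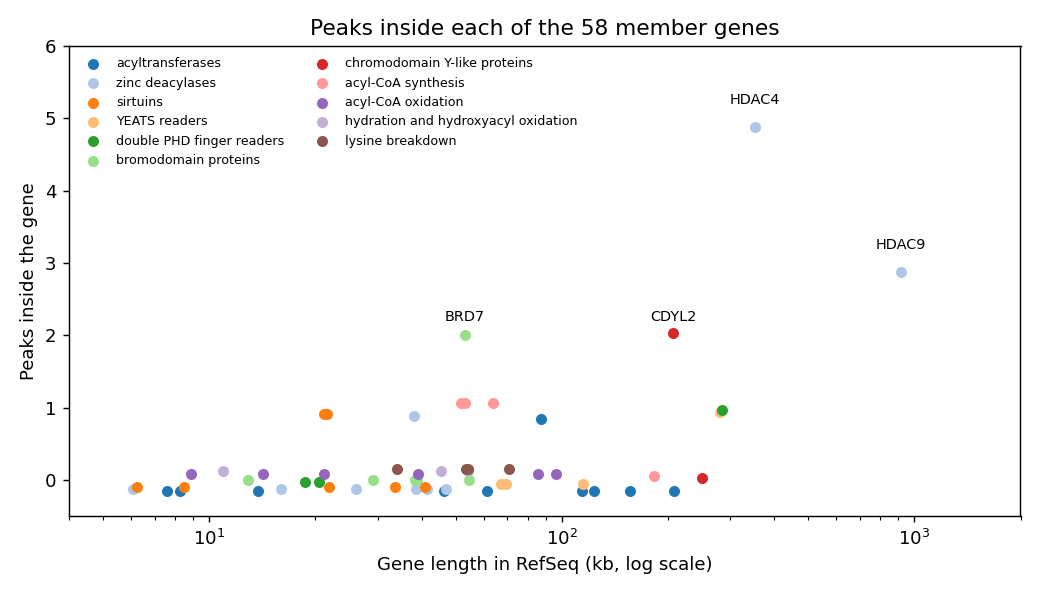
Number of peaks inside each of the 58 member genes (y axis, points of a class shifted slightly so that they do not hide each other) against gene length in kb (x axis, log scale), coloured by class. HDAC4 with 5 peaks and HDAC9 with 3 are the longest members, and BRD7 with 2 peaks is 53.0 kb long.

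Member peaks were low, as most peaks of the list were. Fold enrichment, the authors' value, was read as the ratio of fragments at the summit to the local background with 1 added to each. It ran from 2.53 to 3.60 over the 19 peaks with a median of 2.73, and over all peaks from 2.52 to 6.57 with the same median of 2.73. From these ratios and the p-values, the height of each summit could be worked out as a whole number of ChIP fragments. It was 2 at 18 of the 19 member peaks, or 94.7% (74.0 to 99.9%), beside 74.2% of all peaks, and 3 at the remaining peak, in HDAC4. None of the member peaks had more than 3 fragments, and few of all peaks had, 224 of 10041. The q-value, the p-value adjusted over the genome, was 1 for 18 member peaks and 0.831 for the HDAC4 peak, beside a smallest value of 0.0557 over the whole list. With q-values this large, a single member peak does not by itself show enrichment over background. At 11 of the 19 member peaks, or 57.9%, the background was the lowest in the list, 0.0999 fragments per base, beside 36.4% of all peaks. Since a value of 2.73 was shared by 2863 peaks (28.5%), the order of the members by fold enrichment says little.

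**Figure D3:**
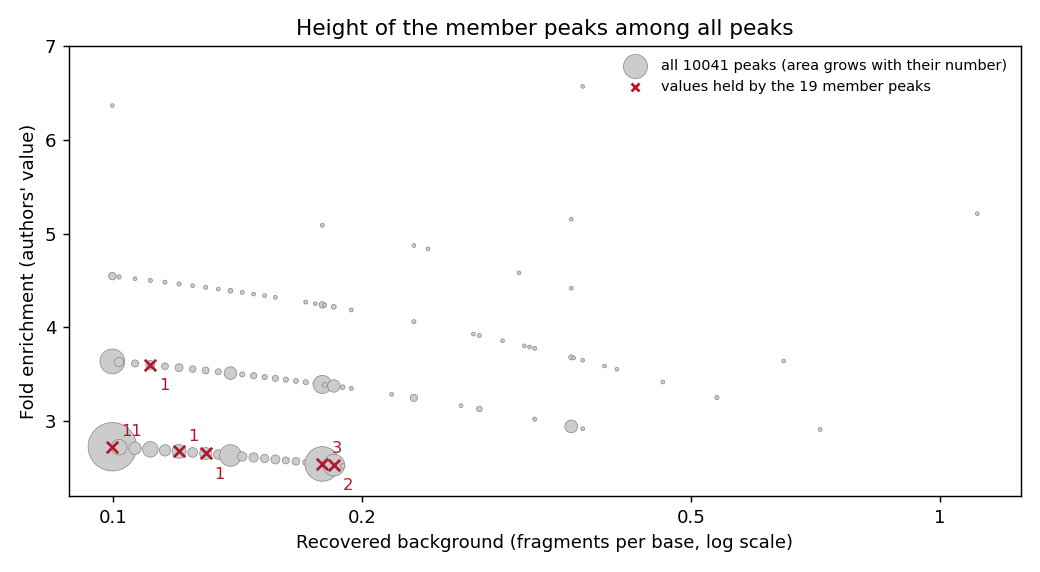
Fold enrichment (y axis) against the recovered background in fragments per base (x axis, log scale) for all 10041 peaks in grey, with point area growing with the number of peaks at a value, and for the member peaks as crosses labelled with their number. The grey rows are summits of 2, 3, 4 and more fragments: 18 member peaks lie on the lowest row and 1, at 3.60, on the next.

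By the authors' genomic classes, 13 of the 19 member peaks lay in introns, 4 at promoters, 1 in an exon and 1 in a 3′ UTR. The 3′ UTR peak is the one assigned to MLLT1, and it lay outside that gene, inside the span of its neighbour ACER1. None of the 19 was classed as intergenic. The interval of 0 of 19 reaches 17.6%, beside 16.4% intergenic among peaks of protein-coding genes and 30.8% among all peaks. Introns made up 68.4% of member peaks (43.4 to 87.4%), beside 52.6% of the 5098 peaks of protein-coding genes. Promoters made up 21.1% (6.05 to 45.6%), beside 25.1%.

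The members closest to what a promoter peak is meant to show are those with a peak near the start of a RefSeq transcript. RefSeq starts were at hand for 52 members, and a peak lay within 3 kb of a start at ACSS1, HDAC2, SIRT2 and HDAC4. That is 7.69% of the 52 (2.14 to 18.5%), beside 3.23% of 15843 protein-coding genes, and the background share lies inside the interval. This count by RefSeq starts was also added after seeing the data. At HDAC4 the nearest start is an internal one, and the peak near it is another than the HDAC4 peak in the authors' promoter class. A further internal HDAC4 start has the same peak from 2691 to 2954 bp after it. Its 250 bases, not shown, had 54.4% GC and 2 CG dinucleotides. The 250 bases before the nearest start at each gene are shown, as RefSeq gives them for GRCh38.p14. They let the regions beside the peaks be compared. All 4 genes are on the minus strand, and the sequences read 5′ to 3′ toward the start. Capitals mark GC boxes (GGGCGG on either strand) and CCAAT boxes (CCAAT on either strand), which do not overlap each other here.
ACSS1, chr20:25058140-25058389, peak from 94 to 366 bp after the start: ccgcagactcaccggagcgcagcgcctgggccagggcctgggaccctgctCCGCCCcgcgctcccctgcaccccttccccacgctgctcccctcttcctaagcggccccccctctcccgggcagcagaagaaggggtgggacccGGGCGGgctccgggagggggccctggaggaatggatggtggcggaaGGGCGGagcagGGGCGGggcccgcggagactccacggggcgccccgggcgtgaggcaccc
HDAC2, chr6:113971149-113971398, peak from 694 to 966 bp after the start: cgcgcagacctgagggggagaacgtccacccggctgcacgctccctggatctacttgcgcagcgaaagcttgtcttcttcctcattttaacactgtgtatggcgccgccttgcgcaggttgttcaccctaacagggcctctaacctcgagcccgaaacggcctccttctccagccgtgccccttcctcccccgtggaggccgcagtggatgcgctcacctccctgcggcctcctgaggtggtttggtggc
SIRT2, chr19:38899619-38899868, peak from 1297 to 1706 bp after the start: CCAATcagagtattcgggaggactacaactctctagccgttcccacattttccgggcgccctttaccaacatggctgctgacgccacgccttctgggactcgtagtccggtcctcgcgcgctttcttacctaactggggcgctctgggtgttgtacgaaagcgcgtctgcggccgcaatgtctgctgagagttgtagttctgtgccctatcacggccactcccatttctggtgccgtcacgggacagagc
HDAC4, internal start, chr2:239273628-239273877, peak from 1537 to 1800 bp after the start: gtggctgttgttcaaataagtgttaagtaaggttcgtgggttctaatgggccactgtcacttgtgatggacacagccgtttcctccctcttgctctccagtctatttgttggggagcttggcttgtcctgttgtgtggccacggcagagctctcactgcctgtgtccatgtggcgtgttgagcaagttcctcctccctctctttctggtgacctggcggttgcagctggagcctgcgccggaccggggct
The ACSS1 sequence held 4 GC boxes, the SIRT2 sequence 1 CCAAT box, and the HDAC2 and HDAC4 sequences neither. A GC box was found in 42.6% and a CCAAT box in 32.0% of 35116 RefSeq promoters over the same 250 bases. GC content was 77.2% at ACSS1, 63.2% at HDAC2, 58.4% at SIRT2 and 56.0% at HDAC4, beside a median of 58.0%. CG dinucleotides numbered 22 at ACSS1, 20 at SIRT2 and 18 at HDAC2, above the median of 11.0, and 8 at the internal HDAC4 start shown.

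Among the acyltransferases, EP300 had a peak, and CREBBP, KAT2A, KAT2B, KAT5, KAT6A, KAT6B, KAT7, KAT8 and HAT1 had none. EP300 encodes p300, which acetylates and crotonylates histones and works as a co-activator of many transcription factors. Its peak, at chr22:41115249-41115515, had a fold enrichment of 2.73 from 2 fragments. The list places it in a promoter class, 2 to 3 kb from the start of an EP300 transcript with a retained intron. The summit lay 22.81 kb inside the 87.5 kb gene, so it is a peak in the body of EP300 and not at its RefSeq start. CREBBP, which encodes the paralog CBP, is 156 kb long and had no peak. The 10 genes span 0.824 Mb and would hold 3.19 peaks at the rate of all genes, beside the 1 found. That is 1.21 per Mb, with an interval of 0.0307 to 6.76 that takes in the 3.87 of all genes. KAT2A, the catalytic subunit GCN5 of SAGA-type complexes, had as its nearest peak the ACLY peak described below, 204 kb away.

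The zinc-dependent deacylases carried 8 of the 19 member peaks, all in HDAC4 and HDAC9. Both encode class IIa histone deacetylases, which shuttle between nucleus and cytoplasm and repress MEF2 factors, and whose own catalytic activity on acetyl-lysine is weak. HDAC4 spans 353 kb and held 5 peaks, from its start inward at 40.75, 129.74, 138.77, 148.16 and 244.23 kb. Their fold enrichments in that order were 2.73, 2.73, 2.53, 3.60 and 2.66, from 2, 2, 2, 3 and 2 fragments. The peak at chr2:239253403-239253677, with 3.60 and a p-value of 5.80e-06, was the highest of any member. It lay in intron 2 of 26 with 2 others, within a stretch of 18.7 kb. The peak at 129.74 kb, chr2:239271827-239272090, is the one near the internal starts, and the list calls it intronic. The peak at 244.23 kb, chr2:239157205-239157503, is the one in the authors' promoter class, through a processed transcript inside the gene. The peak at 40.75 kb, chr2:239360692-239361184, was assigned to the microRNA gene MIR2467 and counted for HDAC4 through its annotation in intron 1. At the rate of all genes HDAC4 would hold 1.37 peaks, and of 1494 protein-coding genes from 0.5 to 2 times its length 2.34% held 5 or more. This comparison was chosen after the count of 5 was seen.

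HDAC9 is the longest member, at 916 kb, and held 3 peaks, all in introns, beside 3.54 at the rate of all genes. They lay at chr7:18310838-18311098, chr7:18380421-18380710 and chr7:18477399-18477696, from 224.12 to 390.75 kb inside the gene. Their fold enrichments were 2.73, 2.68 and 2.73, each from 2 fragments, and the middle one has the RNA gene AC010082.1 as its nearest gene. The class IIa genes HDAC5 and HDAC7 are 46.9 and 38.6 kb long and had no peak. Thus HDAC4 lay above the rate of all genes and HDAC9 close to it, with intervals of 4.59 to 33.0 and 0.676 to 9.58 peaks per Mb that overlap.

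Of the class I enzymes HDAC1, HDAC2 and HDAC3, which remove crotonyl groups from histones, none had an assigned peak. HDAC2 nevertheless held a peak at chr6:113970182-113970454, with a fold enrichment of 2.54 from 2 fragments. The list assigns it to the promoter of HDAC2-AS2, an antisense RNA gene, and its summit lay 0.88 kb inside HDAC2. The peak is thus near the starts of both genes, and which of them it belongs to cannot be told apart from its position. HDAC10, a polyamine deacetylase, and HDAC11, a class IV enzyme that removes long fatty acyl groups, had no peak.

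Among the 7 sirtuins, the NAD-dependent deacylases, SIRT2 had an assigned peak and SIRT4 a peak within its span. SIRT2 is a mostly cytoplasmic deacetylase that also takes part in chromatin compaction at mitosis. Its peak at chr19:38897912-38898321 had a fold enrichment of 2.54 from 2 fragments, and the summit lay 1.63 kb inside the 21.1 kb gene. The list assigns it through a transcript with a retained intron, but this start and the RefSeq start both lie within 3 kb of the peak. SIRT4 is a mitochondrial enzyme that acts on acyl groups of lysine and leucine breakdown. The peak at chr12:120312334-120312768 had a fold enrichment of 3.39 from 3 fragments, and it is listed at the promoter of the small RNA pseudogene RNU6-1088P. It lay at 96.7% of the length of SIRT4, near the 3′ end. SIRT1, SIRT3, SIRT5, SIRT6 and SIRT7 had no peak. SIRT3, the main mitochondrial deacetylase, had one 9.21 kb away, in the list assigned to BET1L. Over all 16 deacylases, 3 had an assigned peak and 5 a peak inside the span, beside 2.80 and 2.76 at the shares of their length groups.

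The 15 readers had an assigned peak at 4 genes, or 26.7% (7.79 to 55.1%), beside 3.92 genes at the shares of their length groups, and none at a promoter. This count takes in the chromodomain proteins CDYL and CDYL2, which were grouped with the readers. YEATS domains bind crotonyl-lysine more tightly than acetyl-lysine. MLLT3 encodes AF9, a YEATS protein of the super elongation complex, and had a peak of 2.73 from 2 fragments at chr9:20583740-20584120. This peak lay in intron 2 of 10, 38.67 kb inside the 281 kb gene. MLLT1 encodes the paralog ENL. The peak assigned to it, at chr19:6306563-6306834 with 2.73 from 2 fragments, lay outside the gene, inside the span of its neighbour ACER1, which encodes an alkaline ceramidase. A peak assigned to another neighbour, ACSBG2, was nearer to MLLT1, 21.1 kb from the gene. YEATS2 and YEATS4, subunits of the ATAC complex and of the TIP60 and SRCAP complexes, had no peak. DPF1, DPF2 and DPF3 are subunits of BAF chromatin remodelling complexes with double PHD fingers, a domain that binds crotonylated histone H3. None had an assigned peak, but a peak of 2.53 from 2 fragments at chr14:72704865-72705129 lay 189.16 kb inside the 285 kb DPF3. Its annotation names an intron of a gene identifier that the list pairs with no symbol.

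Bromodomains bind acetyl-lysine and tolerate the longer crotonyl group poorly. BRD7, a subunit of the PBAF remodelling complex, was the member of this class with peaks, while BRD1, BRD2, BRD3, BRD8 and BRD9 had none. It held 2, at chr16:50325169-50325469 and chr16:50326522-50326831, in introns 11 and 9 of 16. Each had a fold enrichment of 2.73 from 2 fragments, and together they cover a stretch of 1.66 kb in the 3′ part of the 53.0 kb gene. Among 6405 protein-coding genes from 0.5 to 2 times that length, 2.78% held 2 or more peaks, a comparison also made after the count was seen. CDYL2, a chromodomain protein related to the crotonyl-CoA hydratase CDYL, held 2 peaks of 2.73 from 2 fragments each. They lay at chr16:80673052-80673329 in intron 2 and chr16:80685692-80685961 in intron 1 of 6, 131.89 and 119.20 kb inside the 207 kb gene. CDYL, which lowers histone crotonylation by converting crotonyl-CoA, is of similar length at 249 kb and had no peak. Its nearest peak was 441 kb away, the largest distance of any member without a peak.

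**Figure D4:**
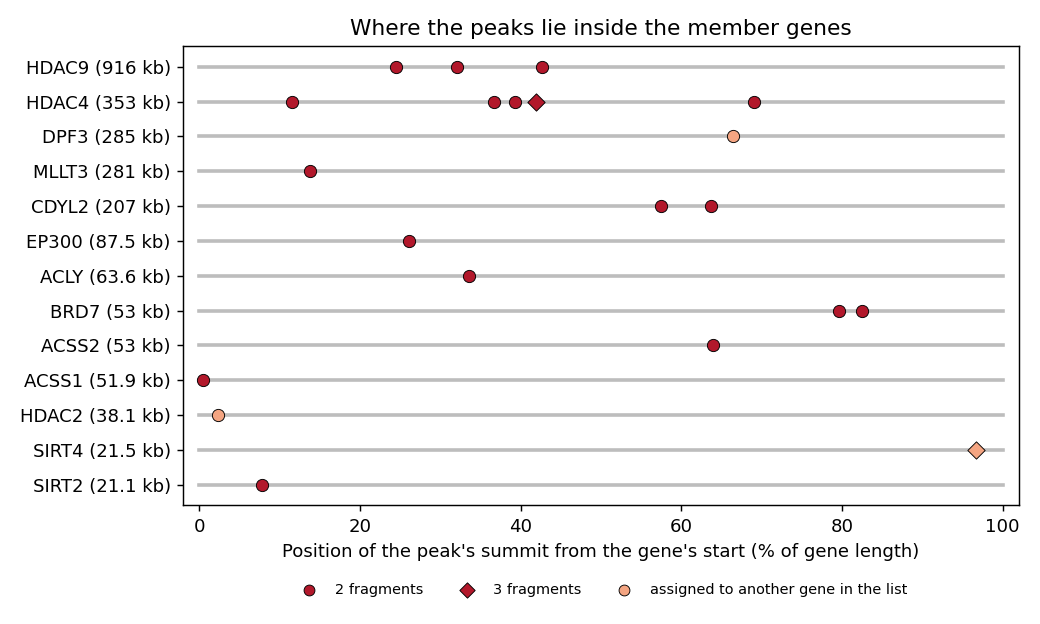
Position of each peak inside a member gene, as a percentage of gene length from the gene's start (x axis), for the 13 members with a peak inside their RefSeq span, ordered by length (y axis). Circles are summits of 2 fragments and diamonds of 3. Light symbols are peaks inside the span only, which were not counted for the member by nearest gene or annotation text. Dark symbols include the HDAC4 peak with MIR2467 and the HDAC9 peak with AC010082.1 as nearest gene, counted through their annotation. ACSS1, HDAC2 and SIRT2 have peaks near the start, and SIRT4 near the end.

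The enzymes that make acyl-CoA were the class with the largest share of genes with a peak, 3 of 4 or 75.0% (19.4 to 99.4%), beside 1.10 at the shares of their length groups. The class was singled out after the counts of all 11 classes were seen. All 3 genes had peaks below the median fold enrichment of 2.73, so with only peaks at or above it the class went from 3 of 4 genes to 0 of 4. Each of these peaks had 2 fragments, as the member peaks at 2.73 had, but over a background of 0.179 or 0.185 against 0.0999. ACSS1 and ACSS2 encode the mitochondrial and the nuclear and cytoplasmic acetyl-CoA synthetase, and ACSS2 also makes crotonyl-CoA from crotonate. The ACSS1 peak, at chr20:25057773-25058045, had a fold enrichment of 2.54 from 2 fragments, with its summit 0.23 kb inside the gene. Among the member peaks in the promoter class it alone belongs to a protein-coding transcript. The ACSS2 peak, at chr20:34908734-34909074 with 2.53 from 2 fragments, lay 33.91 kb inside the 53.0 kb gene. Its annotation places it in exon 3 of 3. The processed transcript whose start is nearest in the list begins downstream of the peak. ACLY encodes ATP citrate lyase, which makes acetyl-CoA from citrate, and its peak at chr17:41909150-41909436 had 2.54 from 2 fragments, in intron 5 of 28. ACSS3, a mitochondrial propionyl-CoA synthetase, is the longest gene of the class at 183 kb and had no peak. Chromosome 20, which carries ACSS1 and ACSS2, had 7.42 peaks per Mb and a mean background of 0.169, the highest of the chromosomes with members. On chromosome 4, the lowest of them, there were 1.66 peaks per Mb. The part of this difference in the ACSS1 and ACSS2 peaks was not tested.

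None of the 13 genes in the oxidation, hydration and lysine breakdown classes had a peak, assigned or inside the span. They are ACOX3, ACADS, ACADM, GCDH, ETFA and ETFB in the oxidation class, ECHS1, HADH and HADHA in hydration and the step after it, and DHTKD1, AASS, AADAT and ALDH7A1 in lysine breakdown. GCDH makes crotonyl-CoA from glutaryl-CoA in lysine and tryptophan breakdown, ACADS makes it from butyryl-CoA, and ECHS1 hydrates it. ETFA and ETFB encode the subunits of the electron transfer flavoprotein, which takes electrons from acyl-CoA dehydrogenases. The exact 95% interval of 0 of 13 reaches 24.7%, which takes in the background. The 13 genes span 0.587 Mb and would hold 2.27 peaks at the rate of all genes, so a lower share than that of other genes was not detectable. GCDH at 8.87 kb and ECHS1 at 10.9 kb are among the shortest members. AADAT and AASS had a peak close by, at 7.18 and 8.29 kb, the former assigned to the pseudogene APOBEC3AP1 and the latter assigned to PTPRZ1, a receptor tyrosine phosphatase gene.

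The 44 members with neither an assigned peak nor one inside the span lay a median of 145 kb from the nearest peak, with a range of 7.18 to 441 kb. Over 15684 protein-coding genes without a peak the median was 97.6 kb. Under 10 kb lay 6.82% of these members and 5.32% of these genes, and over 500 kb none of the members and 6.94% of the genes.

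The 3 promoter calls at EP300, SIRT2 and HDAC4 rest on transcripts that code for no protein, and such calls were common in the list. Of 999 promoter peaks of protein-coding genes with a RefSeq start, 40.4% lay within 3 kb of such a start. The share was 62.2% of 495 where the assigned transcript was protein-coding and 19.0% of 504 where it was of another type.

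Genes that work with the members had peaks in shares from 11.3 to 21.1%. Of 44 partners of acyltransferase complexes 8 had an assigned peak (18.2%), of 39 partners of deacylase complexes 7 (17.9%), and of 38 partners of reader complexes 8 (21.1%), beside 8.02, 9.23 and 8.78 genes at the shares of their length groups. Of 53 further enzymes of short-chain acyl-CoA and lysine metabolism 6 had one (11.3%, 4.27 to 23.0%), beside 10.0. Some partners had higher peaks than any member. TRRAP, the scaffold of SAGA and TIP60 complexes, had a peak in an intron with a fold enrichment of 3.68 from 4 fragments. KANSL1, a subunit of the KAT8-containing NSL complex, had 3.51 and PHF20, a histone methyl-lysine reader of that complex, 3.42, both intronic. OGDHL, related to the E1 subunit of 2-oxoglutarate dehydrogenase, had a peak downstream of the gene with 4.55 from 4 fragments. MEF2A, a transcription factor that class IIa deacetylases repress, had an intronic peak of 3.64 from 3 fragments. The strongest peak assigned to the corepressor RCOR3 was intergenic with 3.25. ARID1B and ARID1A are DNA-binding subunits of BAF complexes with the DPF proteins. They had peaks in the authors' promoter class of 3.64 and 3.62 from 3 fragments each. The ARID1B call rests on a protein-coding transcript and the ARID1A call on one of the nonsense-mediated decay type. Whether the ARID1A peak lies near a RefSeq start is not reported here. EHMT1, a histone H3 lysine methyltransferase, had an intronic peak of 3.64. OXCT1, which uses ketone bodies, was nearest to an intergenic peak of 3.64. SUGCT, a mitochondrial enzyme that turns glutarate into glutaryl-CoA, had 5 peaks over 904 kb, the strongest 3.59.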

How the data were processed

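Pan-Kcr ChIP-seq of crotonate-treated T98G cells was described from the peak list that the authors deposited, made from 1 ChIP and 1 input library. The authors' values are, per peak, a fold enrichment (read here as a ratio over background with 1 added to both) and the −log10 of its p-value and q-value, with genomic class and nearest gene. Aligner, caller, threshold and build were not given in the sources used here. The coordinates of 95 of 95 microRNA genes in the list equal those of GRCh38.p14, so RefSeq spans, lengths and promoter sequences of that build were used.

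Members and lists were chosen with earlier results of these data known. All members were named, by class, and of the partner lists the 3 genes with the strongest peaks, ties by position, of which 1 is not reported here. Of 3469 protein-coding symbols in the list 3446 matched RefSeq. Of 4522 annotation texts with an Ensembl gene, 3359 could be paired with a symbol within the list, and 1163 could not.

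Fragments k and background b were recovered by reading fold as (k + 1)/(b + 1) and p as a Poisson tail above k, to within 6.52e-05 on the −log10 scale. The recovery was also tested on data simulated with these same formulas. That test checks the arithmetic and cannot show that the unnamed caller used them. The depth of the libraries themselves is unknown. RefSeq gene lengths were split into 10 groups of equal size. Intervals are exact binomial or Poisson at 95%. No test between groups was possible. Alternatives were fold enrichment, fragments at the summit, merging, assignment, promoter windows, leaving out chromosome 20 and leaving out the longest member. Software was scipy 1.17.1, pandas 2.3.3 and numpy 2.4.6 under Python 3.11.15, with matplotlib 3.10.9 for plots.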

Additional observations from a re-analysis of the deposited data

How the results depend on the processing

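Height mattered most. With only peaks at or above the median fold enrichment, members with an assigned peak went from 11 to 7, members with a promoter peak from 4 to 1 (EP300) and member peaks from 19 to 12, beside 10.8% of protein-coding genes with an assigned and 3.31% with a promoter peak. The members lost were SIRT2, ACSS1, ACSS2 and ACLY, so acyl-CoA synthesis went from 3 of 4 genes to 0. Their peaks had 2 fragments each, as the member peaks at 2.73 had, but over backgrounds of 0.179 to 0.185 against 0.0999. For these members the cut therefore acted through the background and not through fewer fragments. With only summits of 3 or more fragments, 1 member (HDAC4) with 1 assigned peak was left, and 0 members had a promoter peak. The rate, which counts peaks inside spans and so also the SIRT4 peak, went from 4.25 to 0.40 peaks per Mb, beside 1.01 over all genes. At that height the shares over all protein-coding genes were 5.86% for any assigned peak and 1.79% for promoters. A promoter window of 1 kb left 1 member (ACSS1), beside 3.21% of genes, and one of 5 kb gave 7 members, beside 8.14%. The narrower counts follow from fewer peaks being allowed. The other 18 values under alternatives stayed within 1.5 times the main count or within the interval, among them leaving out chromosome 20, merging peaks within 1 kb and taking RefSeq spans or starts. Of these, the 11 members by nearest gene alone could not have differed, since annotation texts could add no member. No paired analysis was possible because a lone ChIP library leaves nothing to pair.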
